A study of Mus musculus with 10 samples.

Results

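The miR-466 and miR-297 family is a group of mouse microRNAs that come from repeat-rich hairpins, most of them within introns of Sfmbt2, a Polycomb-related gene that is imprinted in mouse. Its members were taken as all entries of the count table named mmu-miR-466 or mmu-miR-297 and followed by a letter or a hyphen, whatever the arm. This gave 37 of 1907 entries, 31 of miR-466 and 6 of miR-297, of which 35 had at least 1 count. Small RNA was sequenced from E14 mouse embryonic stem cells (129/Ola background, from the blastocyst, grown in 15% serum with 100 U/mL LIF on gelatine) of 5 groups with 2 libraries each. WT is unmodified. Dgcr8_KO is the Dgcr8 knockout and Drosha_KO the Drosha knockout, and each lacks a subunit of the Microprocessor, the nuclear complex that cuts a primary transcript into a hairpin. Dicer_KO, the Dicer knockout, lacks the enzyme that cuts the hairpin into a duplex of mature strands. Ago12_KO lacks both Ago1 and Ago2, a pair of Argonaute proteins, which hold the mature strand. The labels of the Dicer_KO libraries differ (C1 and H11), as do those of WT (P25 and P33), and nothing in the labels says that the other replicates were separate cultures, so p-values measure only how far these samples vary, and that variation may be technical.

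A canonical miRNA needs the Microprocessor and then Dicer, and the 2 arms of its hairpin give a 5p and a 3p strand. The strand kept by an Argonaute finds its targets through the seed, bases 2 to 8. The miR-466, miR-297, miR-467 and miR-669 hairpins of Sfmbt2 form a large rodent cluster in which a short unit was copied many times, and their strands are rich in alternating UG or CA bases. A read from such a strand can match many hairpins.

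Mature sequences of 4 members and the hairpin of 1 miR-297a copy were found in the RefSeq table (GRCm38 patch 6). They are shown as examples of repeats in the family, with the seed in capitals in the mature strands. All of them come from hairpins outside Sfmbt2, and no mature sequence from within Sfmbt2 was found. They therefore do not show the strands that hold most of the counts.
miR-466k: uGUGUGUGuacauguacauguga
miR-466j: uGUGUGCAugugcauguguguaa
miR-466i-3p: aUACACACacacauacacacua
miR-466q: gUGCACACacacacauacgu
Mir297-1: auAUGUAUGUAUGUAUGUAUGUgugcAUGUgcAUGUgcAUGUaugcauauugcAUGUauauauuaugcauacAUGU
The 4 seeds differ from each other, so no seed was shared among them. All 4 mature strands held an alternating run of 6 bases, either UGUGUG or its shifted form GUGUGU, or the reverse complement of one of them (CACACA for the former and ACACAC for the latter; the forms overlap), against 49 of 1679 mature sequences in the table (2.92%). The capitals in the Mir297-1 hairpin mark the motif AUGU, which occurred 10 times in its 76 bases. The motif was present in 26.1% of 1005 hairpins, with a median of 0 per hairpin, and 2 hairpins, Mir297-1 among them, held it at least 10 times. miR-466k lies at chr3:85467396-85467418, miR-466q at chr3:28419988-28420007 in an intron of Tnik, miR-466j at chr10:60960802-60960824, miR-466i-3p at chr13:17747552-17747573 and Mir297-1 at chr7:10958437-10958512 on the minus strand. The strands shown are among the rare ones of the family: miR-466k had 15 and 9 counts in WT, miR-466j had none in any library, and miR-466i-3p and miR-466q had 1 count each, in WT replicate 2.

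The RefSeq gene table placed 35 hairpins of the family, 29 of them on chromosome 2 between 10466663 and 10517164 (GRCm38), a stretch of 50502 bases on the plus strand. All 29 lie within introns of Sfmbt2 (chr2:10370510-10595253, GENCODE M21) on its strand, and 6 lie elsewhere. miR-466b has 8 hairpins, miR-466c has 3, and miR-466a, miR-466e and miR-466p have 1 each. miR-466f has 4 hairpins, of which Mir466f-4 is on chromosome 13, and miR-297a has 4, of which Mir297-1 is on chromosome 7.

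The copy numbers of miR-466b and miR-466c reappeared in the counts of their 3p strands. In WT replicate 1 the count was 1124 for miR-466a-3p, 1124 for miR-466p-3p, 1128 for miR-466e-3p, 3384 for miR-466c-3p and 8998 for miR-466b-3p. In Ago12_KO replicate 1 the same entries had 162, 162, 162, 486 and 1293 counts. miR-466b-3p thus held 8 times and miR-466c-3p 3 times the count of miR-466a-3p, and over all libraries the deviation from these whole numbers was 0.226% and 0.195% of the counts. The 5 entries therefore showed the counts of 1 set of reads rather than 5 separate measurements. miR-297a-3p held exactly 2 times the count of miR-297b-3p and miR-297c-3p in all 10 libraries, which does not match the 4 hairpins of miR-297a. miR-466d-5p and miR-466n-5p were identical. miR-466c-5p held only multiples of 3, the number of its hairpins. miR-466f-5p did so too except in Dgcr8_KO replicate 1, where it had 4 counts. Entries that stood in a whole-number ratio, within 1% of their counts and with at least 50 counts, are called a read set here and are represented by their smallest entry. The 37 entries formed 30 read sets, of which 28 had counts. Another identical pair, miR-466i-3p and miR-466q, rests on 1 count each and was not joined.

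**Figure D1:**
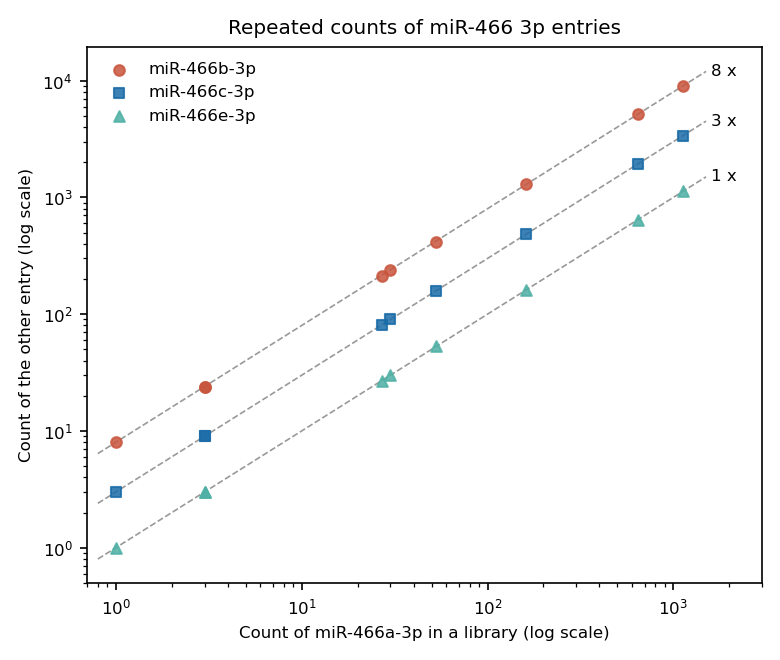
Counts of miR-466b-3p, miR-466c-3p and miR-466e-3p (y axis, reads, log scale) against the count of miR-466a-3p (x axis, reads, log scale), 1 point per library and entry; Dicer_KO replicate 2, with no count of any of them, is not drawn. The points lie on the dashed lines for 8, 3 and 1 times the miR-466a-3p count.

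Library totals ran from 37476 counts in Dicer_KO replicate 2 to 2357868 in WT replicate 1. A total of 3 counts over both libraries of a group, taken here as the floor, was worth 0.697 CPM (the count scaled to a common library total) in WT. The floor was 5.18 CPM in Ago12_KO, 4.30 CPM in Dgcr8_KO, 36.3 CPM in Dicer_KO and 37.6 CPM in Drosha_KO. The mean WT level was above that floor for 12 members in Drosha_KO and 13 in Dicer_KO, so for the others a fall was hard to detect at this depth. The miR-290 to miR-295, miR-302 and miR-367 entries, markers of embryonic stem cells, held 18.5 to 19.8% of the WT counts and 3.25 to 3.63% of those of Dicer_KO. They held 11.5 to 12.5% in Ago12_KO, at least 20.5% in Drosha_KO and 16.0 to 16.4% in Dgcr8_KO. Of these 24 entries, 9 were at 0 in Drosha_KO, all strands of miR-302 among them. In Dicer_KO 8 were at 0, in Dgcr8_KO 6, and in WT and Ago12_KO 3 each. Neural entries summed to 0.132 to 0.140% in WT and 0.0267 to 0.158% in the knockouts, and muscle entries to at most 0.000979% in any group. Of 9 entries that mark liver, gut and endoderm, 4 were at 0 in Ago12_KO and WT, both strands of miR-122 among them. They summed to 0.683 to 1.18% of the Ago12_KO counts, 0.156 to 0.161% of those of WT, and 0.0174 to 0.0509% of those of the other groups. Of 9 blood entries, 5 were at 0 in Ago12_KO, including miR-223, miR-144 and miR-451a, and the rest summed to 0.880 to 1.14% there and 0.136 to 0.177% in WT. In Dgcr8_KO and Drosha_KO the blood entries summed to 0.355 to 0.567%, and in Dicer_KO to 0.0454 to 0.0619%. Of 11 fibroblast or feeder entries, the sum was 0.258 to 0.351% in WT, 0.296 to 0.623% in the Microprocessor knockouts, 0.0155 to 0.0427% in Dicer_KO and 0.109 to 0.212% in Ago12_KO, with both strands of miR-214 at 0 in each group. The part of these shifts in the results was not tested. Fold changes compare shares of the counted reads and say nothing of amounts per cell, and fewer cells with a miRNA and less of it per cell cannot be told apart.

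Counting identical entries 1 time, the family held 0.766% of the counts in WT replicate 1 (95% Clopper-Pearson interval 0.755 to 0.777%) and 0.513% in WT replicate 2 (0.503 to 0.523%). The share was 0.940% and 0.481% in Ago12_KO, 0.175% and 0.0400% in Dicer_KO, 0.152% and 0.141% in Drosha_KO, and 0.176% and 0.158% in Dgcr8_KO. Every library of Dgcr8_KO, Drosha_KO and Dicer_KO was thus below both WT libraries, and the Ago12_KO libraries were 1 above and 1 below them. The order changed when each read set was counted 1 time, which removes most of the miR-466 3p counts. The share then was 0.340% and 0.194% in Ago12_KO, against 0.189% and 0.112% in WT. It was 0.148% and 0.0400% in Dicer_KO, 0.0607% and 0.0422% in Drosha_KO, and 0.0604% and 0.0644% in Dgcr8_KO. Dicer_KO now overlapped WT, and both Ago12_KO libraries were above both WT libraries, by a small margin for Ago12_KO replicate 2. miR-466c-5p, whose counts are multiples of 3, gave 42 of the 67 counts of Dicer_KO replicate 1. With it divided by 3, the share was 0.0862% and 0.0294% in Dicer_KO, below the 0.183% and 0.109% of WT, so the overlap of these groups was lost. The Ago12_KO shares were then 0.311% and 0.184%, and the interval of the latter (0.167 to 0.203%) held the value of WT replicate 1. Intervals and floors here take in the error of counting alone, since PCR copies are not separate molecules.

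The make-up of these sums is given by arm, as a description. With each read set counted 1 time, miR-466 3p strands made 30.8% and 34.8% of the family in WT, but 3 of 67 counts (4.48%) in Dicer_KO replicate 1 and none of 15 in replicate 2. miR-466 5p strands made 51.0% and 48.3% in WT and 83.6% and 66.7% in Dicer_KO. The repeat-counted miR-466c-5p carried much of the latter: without it, miR-466 5p strands made 14 of 25 counts (56.0%) and 4 of 9 (44.4%) in Dicer_KO, and 48.6% and 46.1% in WT. miR-297 5p strands made 10.5% and 9.23% in WT and 30.3% and 29.3% in Dgcr8_KO. miR-297 3p strands made 6.49% and 3.37% of the family in Ago12_KO, against 1.06% and 1.56% in WT.

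**Figure D2:**
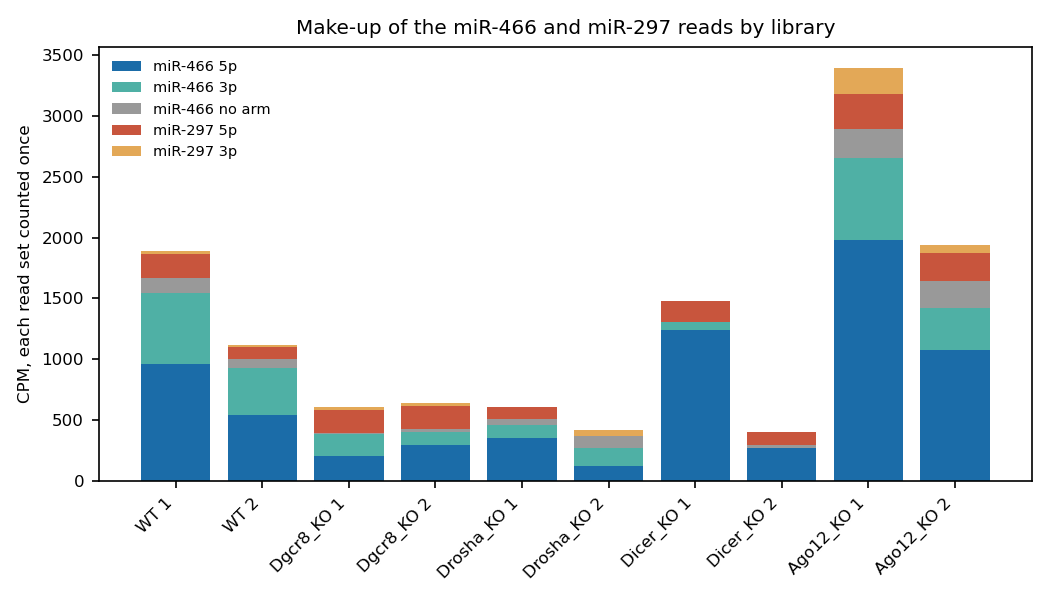
Stacked bars give the CPM (y axis, each read set counted 1 time) of miR-466 and miR-297 strands by arm in each of the 10 libraries (x axis). The miR-466 3p part is small or absent in the Dicer_KO libraries, and the Ago12_KO bars are the tallest of replicate 1 and of replicate 2.

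Of the 37 entries, 22 passed the filter on low counts, and they stood for 15 read sets; the other 15 had at most 57 counts in any library. Among the latter, miR-466n-3p had 37 and 18 counts in WT, 5 and 4 in Ago12_KO and 2 in Dgcr8_KO replicate 1. miR-466o-3p had 11 and 5 counts in WT and 1 in Ago12_KO replicate 1, and neither strand had a count elsewhere. Of the tested read sets, the mean WT level ran from 10.9 CPM for miR-466a-5p to 425 CPM for miR-466b-5p, next to 404 CPM for miR-466a-3p. These levels are not divided by length, and repeated counting can raise them, so the order of entries is a description of the table only.

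**Figure D3:**
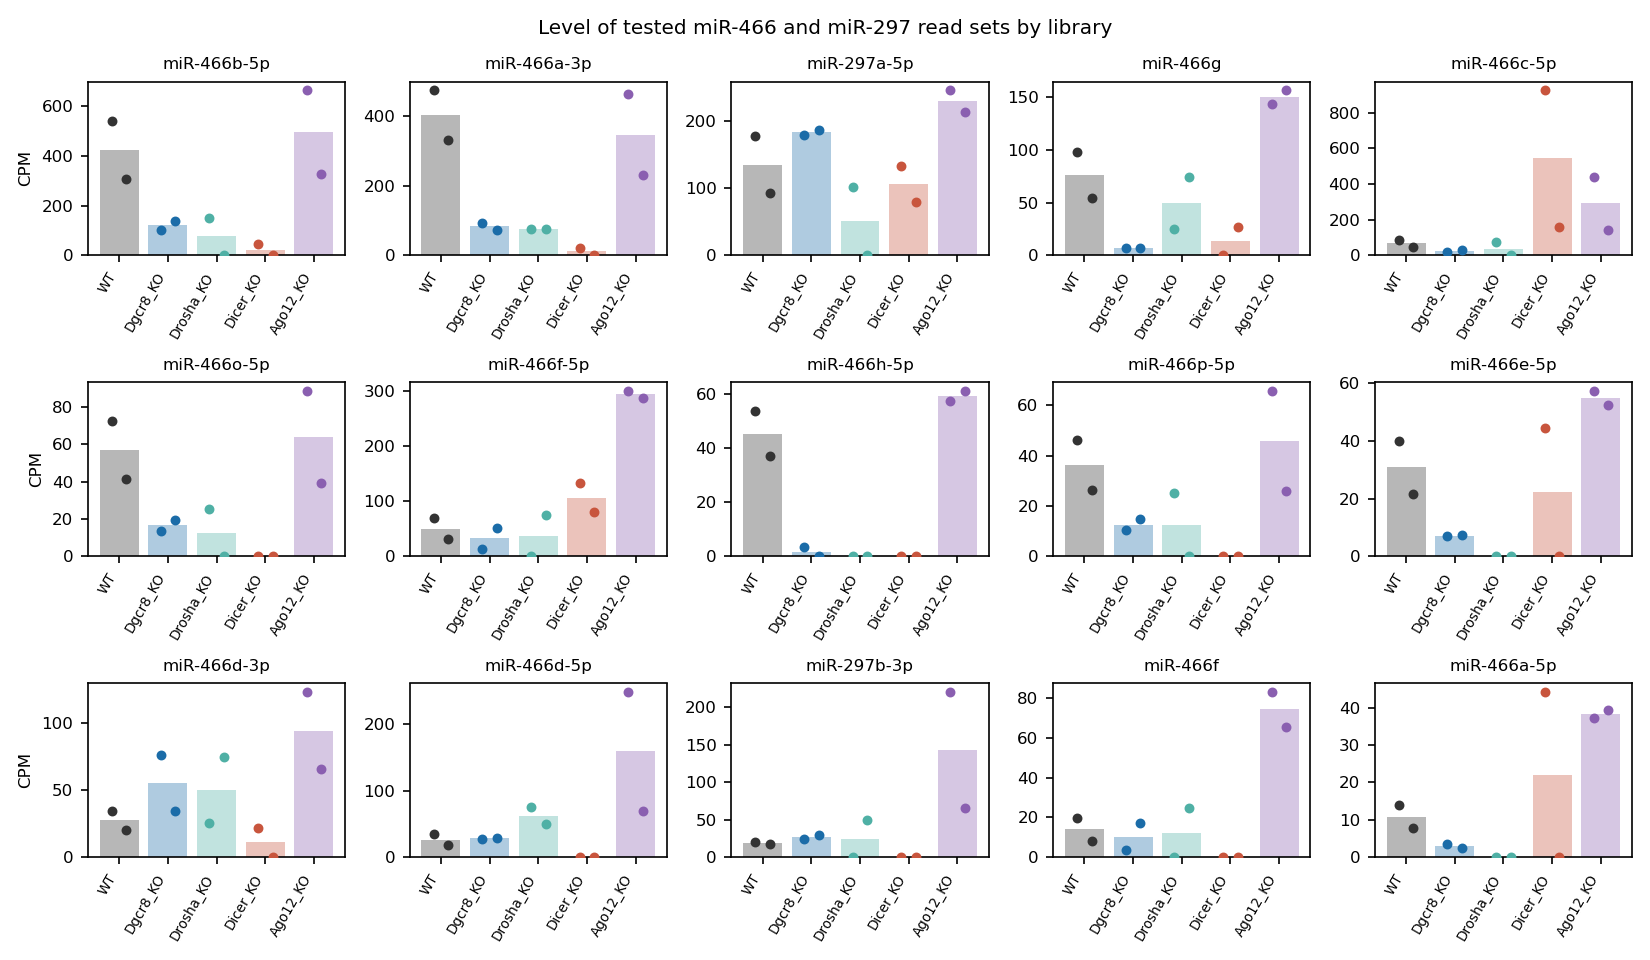
Level in CPM (y axes, each from 0) of the 15 tested read sets in the 5 groups (x axes); points are libraries and bars are means of 2. miR-466a-3p and miR-466h-5p are low in Dgcr8_KO, Drosha_KO and Dicer_KO, and miR-466c-5p is highest in Dicer_KO.

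In Dgcr8_KO against WT, the comparison that asks what changes when Dgcr8 is lost, 6 of 15 read sets fell, all of miR-466. That share was close to the 41.0% of all 481 tested entries that were lower. The tested miR-297 strands did not pass the test. miR-466a-3p, which stands for the 3p strand of 14 hairpins, was at 477 and 332 CPM in WT and at 93.3 and 73.4 CPM in Dgcr8_KO. The groups did not overlap, and the log2 fold change was -2.29 (SE 0.42, edgeR adjusted p = 0.000528). miR-466g, the product of 1 hairpin within Sfmbt2, went from 98.4 and 54.5 CPM to 6.91 and 7.34 CPM, a log2 fold change of -3.38 (SE 0.63, edgeR adjusted p = 0.000603). miR-466h-5p, from the neighbouring hairpin, was at 53.4 and 37.0 CPM in WT and had 1 count and no count in Dgcr8_KO. Its ratio to WT was 0.0311, with a 95% counting interval of 0.000784 to 0.175 (edgeR adjusted p = 0.00108).

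The other calls were 5p strands of miR-466. miR-466b-5p, which is listed once for 8 hairpins, was at 542 and 309 CPM in WT and 104 and 137 CPM in Dgcr8_KO (log2 fold change -1.81, edgeR adjusted p = 0.0116). miR-466o-5p went from 72.5 and 41.7 CPM to 13.8 and 19.6 CPM (-1.74, edgeR adjusted p = 0.0250), and miR-466e-5p from 39.9 and 21.6 CPM to 6.91 and 7.34 CPM (-2.08, edgeR adjusted p = 0.0213). The WT and Dgcr8_KO libraries did not overlap for any of these 3 strands. Without WT replicate 1 the edgeR adjusted p was 0.103 for miR-466b-5p, 0.156 for miR-466o-5p and 0.130 for miR-466e-5p. These 3 calls were also lost without Dgcr8_KO replicate 1 (edgeR adjusted p = 0.0752, 0.126 and 0.0953), and the latter pair without Dgcr8_KO replicate 2 (edgeR adjusted p = 0.0885 and 0.120).

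In all, 6 of 15 read sets were lower in Dgcr8_KO and none was higher (10 and 0 of 22 entries), while 41.0% of all 481 tested entries were lower and 32.4% higher (73.4% either way). The median log2 fold change was -1.49 over the read sets and -0.41 over all tested entries. Other members did not pass the test. miR-297a-5p was at 177 and 92.6 CPM in WT and at 180 and 186 CPM in Dgcr8_KO (0.44, SE 0.44, edgeR adjusted p = 0.391). miR-297b-3p had 19.9 and 17.5 CPM in WT and 24.2 and 29.4 CPM in Dgcr8_KO (0.52, SE 0.67, edgeR adjusted p = 0.494). The arms of miR-466d were at 0.95 (SE 0.54) for 3p and 0.09 (SE 0.66) for 5p (edgeR adjusted p = 0.132 and 0.907). miR-466a-5p was at -1.86 (edgeR adjusted p = 0.0902) and was called lower with TMM factors (0.0477). miR-466c-5p was at -1.39 (edgeR adjusted p = 0.148). It was called lower with no filter (0.0228) and when only Dgcr8_KO and WT were fitted (0.0123). miR-466p-5p, at -1.49 (edgeR adjusted p = 0.0622), just missed the threshold and was called in 6 of the alternatives. Among members under the filter, miR-297b-5p had 47 and 20 counts in WT and none in Dgcr8_KO, and it was called lower when the filter was loosened to 3 counts in 2 libraries (edgeR adjusted p = 0.00491), as were miR-466h-3p (0.0207) and miR-466f-3p (0.0410).

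In Drosha_KO against WT, 2 of 15 read sets were lower and none was higher (6 and 0 of 22 entries), against 31.6% lower and 26.2% higher of all 481 (57.8% either way). miR-466a-3p had 3 counts in each Drosha_KO library, or 75.9 and 74.4 CPM, and its log2 fold change was -2.42 (SE 0.62, edgeR adjusted p = 0.00567). miR-466b-5p had 6 counts in replicate 1 (152 CPM) and none in replicate 2 (-2.50, SE 0.85, edgeR adjusted p = 0.0259). That call was lost without Drosha_KO replicate 2 (edgeR adjusted p = 0.0993), without WT replicate 1 (0.0937) and when only Drosha_KO and WT were fitted (0.0733). miR-466h-5p had no count in either Drosha_KO library and was at least 1.20-fold lower, and it was not called (edgeR adjusted p = 0.0509), except with TMM factors (0.0229) and with repeat-counted entries divided by their common factor (0.0489). miR-466e-5p, whose mean WT level of 30.7 CPM is under the Drosha_KO floor, had no count there either. It was not called (edgeR adjusted p = 0.0965), except with TMM factors (0.0468). miR-466g had 1 and 3 counts, or 25.3 and 74.4 CPM, against 98.4 and 54.5 CPM in WT (-0.61, SE 0.78, edgeR adjusted p = 0.511). miR-297a-5p had 4 counts in replicate 1 (101 CPM) and none in replicate 2 (-1.42, SE 0.84, edgeR adjusted p = 0.165). It was called lower with TMM factors (-2.06, edgeR adjusted p = 0.0443) and without Drosha_KO replicate 1 (edgeR adjusted p = 0.0195), where no count of it remains.

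The Microprocessor knockouts were also compared directly. No entry of the family was called in Dgcr8_KO against Drosha_KO by edgeR, with 2 of 22 at an unadjusted p under 0.05 against 137 of all 481, while 5.61% of all tested entries passed the adjusted threshold as higher and 8.32% lower (13.9% either way). DESeq2 with column totals called 1, miR-466g, lower in Dgcr8_KO (log2 fold change -2.81, DESeq2 adjusted p = 0.0485), which edgeR placed at -2.77 (SE 1.10, edgeR adjusted p = 0.116). miR-297a-5p was at 1.86 (SE 0.83, edgeR adjusted p = 0.170), and without Drosha_KO replicate 1, which leaves that group with no count, its edgeR adjusted p was 0.0327. For miR-466a-3p the difference was 0.14 (SE 0.72).

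**Figure D4:**
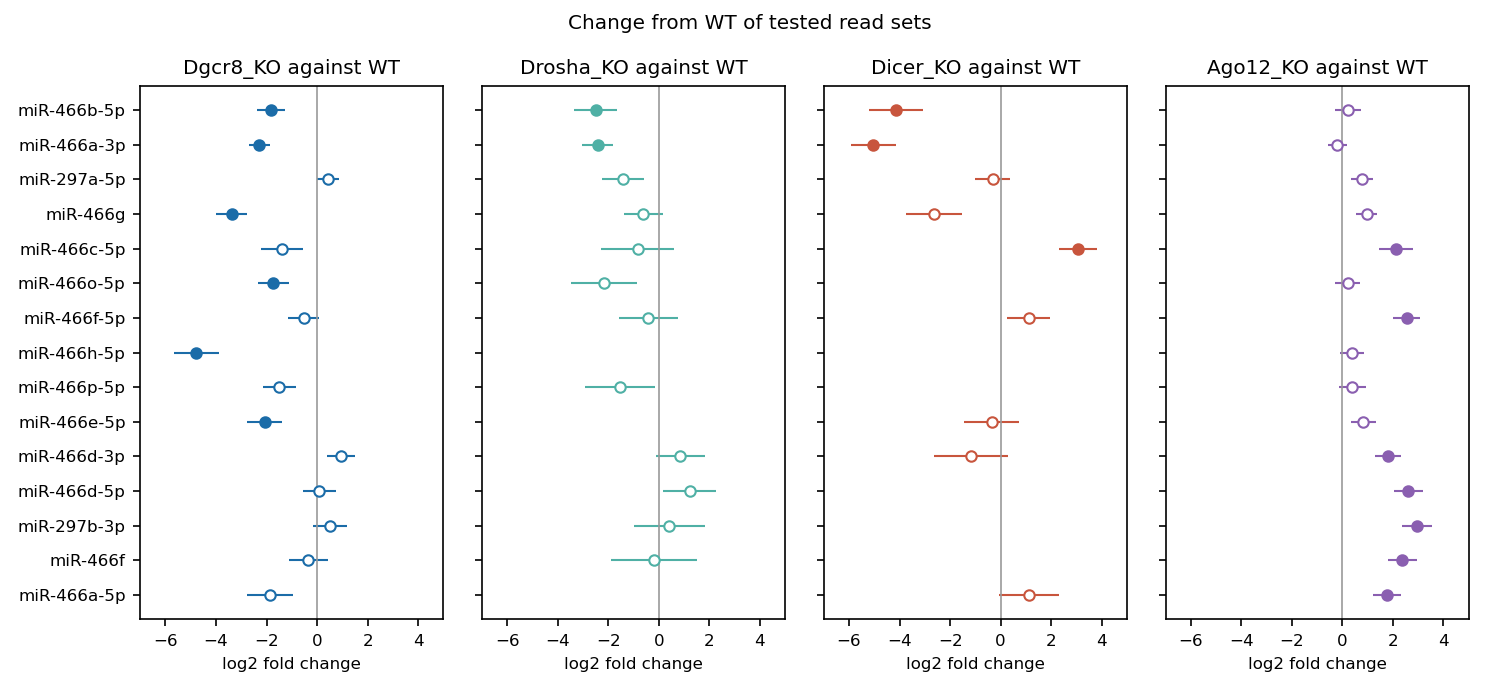
Log2 fold change against WT (x axes, bars are 1 SE) of the tested read sets (y axis) in the 4 knockouts, from the fit of all entries. Filled points have an edgeR adjusted p under 0.05, and read sets with no count in the knockout are not drawn. Filled points lie left of 0 in Dgcr8_KO and Drosha_KO, right of 0 in Ago12_KO, and on both sides in Dicer_KO.

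In Dicer_KO against WT, 4 read sets were lower and 1 was higher (8 and 1 of 22 entries), against 42.6% lower and 13.3% higher of all 481 (55.9% either way). The 3p strand of the 14 hairpins was among those that fell. miR-466a-3p had 1 count in Dicer_KO replicate 1 (22.1 CPM) and none in replicate 2, a ratio to WT of 0.0294 (95% counting interval 0.000744 to 0.164, edgeR adjusted p = 0.000612). miR-466b-5p had 2 counts and none, with a ratio of 0.0554 (0.00670 to 0.200, edgeR adjusted p = 0.00662), a call lost without Dicer_KO replicate 2 (edgeR adjusted p = 0.0619) and with DESeq2 size factors (0.102). miR-466h-5p and miR-466o-5p had no count in Dicer_KO. They were at least 1.25-fold and 1.57-fold lower, bounds set by the depth, with edgeR adjusted p = 0.0494 and 0.0460. Both calls were close to the threshold and were lost in 13 and 7 of 19 alternatives. Both were lost without WT replicate 1 (edgeR adjusted p = 0.109 and 0.0936), without either Dicer_KO library (0.142 to 0.193), without either Dgcr8_KO library (0.0510 to 0.0558), with DESeq2 size factors (0.208 and 0.222) and with the filter of 3 counts in 2 libraries (0.0801 and 0.0632). The miR-466h-5p call was also lost without WT replicate 2 (edgeR adjusted p = 0.0612), without either Ago12_KO library (0.0737), with no filter (0.0880) and by DESeq2 (DESeq2 adjusted p = 0.0546). miR-466d-5p, miR-466p-5p, miR-466f and miR-297b-3p had no count either and were not called. miR-466g had 1 count, in replicate 2, a ratio to WT of 0.154 (95% counting interval 0.00389 to 0.863), and was not called (edgeR adjusted p = 0.0653) but was with TMM factors (0.0439) and without WT replicate 2 (0.0479).

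miR-466c-5p rose in the same cells. It had 42 and 6 counts in Dicer_KO, or 929 and 160 CPM, against 87.8 and 46.3 CPM in WT, and both Dicer_KO libraries were above both WT libraries. The log2 fold change was 3.05 (SE 0.75, edgeR adjusted p = 0.00512). All its counts are multiples of 3, so they stand for 14 and 2 reads if each was counted for every hairpin, and without Dicer_KO replicate 1 the log2 fold change was 1.25 (edgeR adjusted p = 0.457). Other 5p strands of the family kept some counts. miR-297a-5p was at 132.7 and 80.1 CPM (-0.32, SE 0.69, edgeR adjusted p = 0.709) and miR-466f-5p at 132.7 and 80.1 CPM against 68.7 and 30.9 CPM in WT (1.11, SE 0.85, edgeR adjusted p = 0.289). For miR-466f-5p these were 6 and 3 counts in Dicer_KO, both multiples of 3, so they may stand for fewer reads. miR-466m-5p, under the filter, had 2 and 1 counts in Dicer_KO and 7 and 4 in the far deeper WT libraries, a ratio of 14.2 (95% counting interval 2.54 to 53.7), and was called higher with the looser filter (edgeR adjusted p = 0.0297).

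Dicer_KO and Drosha_KO have similar totals, but the depth left for most entries differs. Without the fragment-like entries miR-1983, miR-3963, miR-6236, miR-6239 and miR-6240, the totals were 23304 and 19896 in Dicer_KO and 37723 and 38589 in Drosha_KO. CPM and fold changes were taken over the whole totals, and the part of these entries in them was not tested. Over the 22 entries, 2 were lower and 1 higher in Dicer_KO, against 30.4% lower and 13.5% higher of all tested (43.9% either way). miR-466c-5p was higher (log2 fold change 3.89, edgeR adjusted p = 0.0264). The call was lost without Dicer_KO replicate 1 (edgeR adjusted p = 0.335) and when repeat-counted entries were divided by their common factor (edgeR adjusted p = 0.0564). The lower entries were miR-466b-3p (-2.66, edgeR adjusted p = 0.0174) and miR-466c-3p (-2.64, edgeR adjusted p = 0.0388). Both calls were lost with DESeq2 size factors (edgeR adjusted p = 0.171 and 0.276) and without Dicer_KO replicate 2 (0.0715 and 0.177). That of miR-466b-3p was also lost when only those groups were fitted (edgeR adjusted p = 0.0745). That of miR-466c-3p was also lost with TMM factors (edgeR adjusted p = 0.0715), without Drosha_KO replicate 1 (0.0610) and when divided by its common factor (0.150). miR-466a-3p, which holds the same reads counted 1 time, had 3 and 3 counts in Drosha_KO and 1 and 0 in Dicer_KO with a log2 fold change of -2.62 that was not called (edgeR adjusted p = 0.147). The difference in the 3p strand between these groups thus passed the threshold only in the entries that hold 8 and 3 times its counts.

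In Ago12_KO against WT, 7 of 15 read sets were higher and none was lower (10 and 0 of 22 entries), against 28.7% higher and 25.8% lower of all 481 (54.5% either way). The median log2 fold change was 0.96 over the read sets and -0.02 over all tested entries. Among the higher ones, miR-466f, miR-297b-3p and miR-466a-5p passed the filter of 38.54 CPM only with the help of Ago12_KO libraries. Their place among the 15 thus depends on a high level in Ago12_KO, so the 7 of 15 and the median are in part set by the filter. miR-297b-3p, which stands for miR-297a-3p and miR-297c-3p too, was at 220 and 65.4 CPM in Ago12_KO against 19.9 and 17.5 CPM in WT (2.96, SE 0.58, edgeR adjusted p = 0.00161). miR-466d-5p, identical to miR-466n-5p, was at 249 and 69.8 CPM against 35.2 and 18.0 CPM (2.60, SE 0.57, edgeR adjusted p = 0.00294). miR-466f-5p was at 301 and 288 CPM against 68.7 and 30.9 CPM (2.55, SE 0.54, edgeR adjusted p = 0.00186). Its 105 and 66 counts in Ago12_KO are multiples of 3 and may stand for fewer reads, and the entry was not divided in any alternative. No WT library reached the lower Ago12_KO library for these 3 strands, though the Ago12_KO libraries differed by more than 3 times for the first pair.

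There were 4 other calls. miR-466f was at 83.0 and 65.4 CPM against 19.9 and 8.23 CPM (2.38, edgeR adjusted p = 0.00590), miR-466c-5p at 438 and 143.8 CPM (2.13, edgeR adjusted p = 0.0182), miR-466d-3p at 123 and 65.4 CPM (1.79, edgeR adjusted p = 0.0124) and miR-466a-5p at 37.2 and 39.2 CPM (1.78, edgeR adjusted p = 0.0189). Of these, miR-466a-5p, miR-466c-5p and miR-466d-3p lost their call with TMM factors (edgeR adjusted p = 0.0953, 0.0709 and 0.0824). All 4 lost it without WT replicate 2 (edgeR adjusted p = 0.0643 for miR-466f, 0.134 for miR-466c-5p, 0.120 for miR-466d-3p and 0.134 for miR-466a-5p). Without Ago12_KO replicate 1 the call was lost for miR-466c-5p (1.09, edgeR adjusted p = 0.248), miR-466d-3p (1.24, edgeR adjusted p = 0.146), miR-466d-5p (1.37, edgeR adjusted p = 0.0830) and miR-466a-5p (edgeR adjusted p = 0.0859), the last also without Ago12_KO replicate 2 (edgeR adjusted p = 0.0597).

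The abundant strands did not pass the test in Ago12_KO. miR-466a-3p was at 464 and 231 CPM there, on either side of the 332 CPM of WT replicate 2 (-0.20, SE 0.37, edgeR adjusted p = 0.653). miR-466b-5p was at 667 and 327 CPM against 542 and 309 CPM (0.24, SE 0.51, edgeR adjusted p = 0.706). miR-297a-5p was at 246 and 213.6 CPM, above both WT libraries (0.77, edgeR adjusted p = 0.161). miR-466g was at 143.1 and 156.9 CPM, also above both (0.96, SE 0.42, edgeR adjusted p = 0.0720). miR-466e-5p, miR-466h-5p, miR-466o-5p and miR-466p-5p had log2 fold changes of 0.83, 0.38, 0.21 and 0.40 and were not called. Under the filter, miR-297c-5p (8 and 2 counts, against 5 and 1 in WT) and miR-466m-5p (6 and 7 counts, against 7 and 4) were called higher with the looser filter (edgeR adjusted p = 0.00388 and 0.00220).

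The WT libraries themselves differed for this family. Of the 21 read sets with at least 10 counts in a WT library, all 21 had a higher CPM in WT replicate 1 than in WT replicate 2, and the median log2 ratio was 0.82, with a range of 0.18 to 1.25. miR-466a-3p stood at 0.52 and miR-466f-5p at 1.15. The same held for 27 of 27 miR-467 and miR-669 entries (median 0.69), while 249 of 521 other entries (47.8%) were higher in replicate 1 (median -0.02). In Ago12_KO, 14 of 17 read sets with 10 counts were higher in replicate 1 (median 0.98), against 47.2% of all entries. Many of these entries share reads, and of the 21 read sets all but miR-466k have a hairpin within Sfmbt2. The entries are thus not independent, and no test was made over them. The difference is part of the spread against which each knockout was tested.

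**Figure D5:**
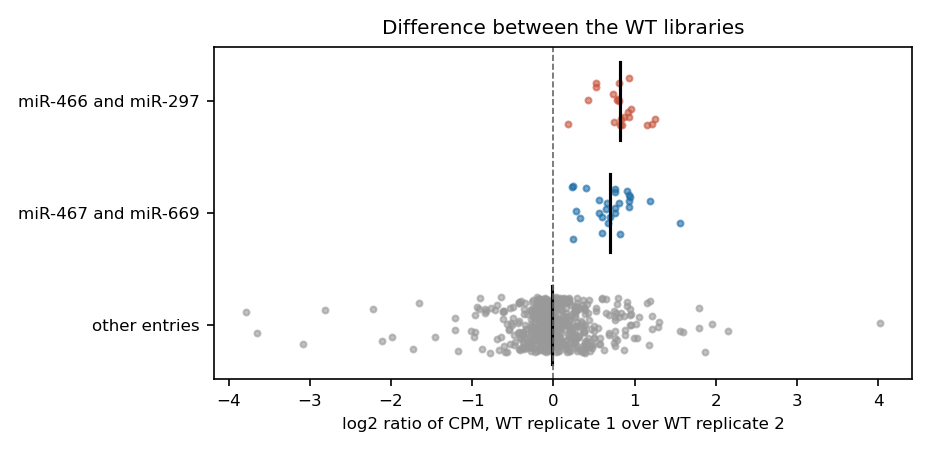
Log2 ratio of the CPM in WT replicate 1 over that in WT replicate 2 (x axis) for entries with at least 10 counts in a WT library, in 3 lists (y axis; vertical spread is for display and black bars are medians). All miR-466, miR-297, miR-467 and miR-669 points lie right of 0.

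The miR-467 and miR-669 entries, most of which lie between the miR-466 hairpins within Sfmbt2, were tested in the same fits. They were not joined into read sets, so entries that may hold the same reads count separately. miR-467a-5p and miR-467b-5p, for example, had the same log2 ratio between the WT libraries (0.594). Of 22 tested, 8 were higher and none lower in Dgcr8_KO, against 32.4% higher and 41.0% lower of all 481 tested entries. In Drosha_KO 3 were higher and 2 lower, against 26.2% and 31.6% of all. In Dicer_KO 3 were higher and 2 lower, against 13.3% and 42.6%. In Ago12_KO 10 were higher and none lower, against 28.7% and 25.8%. The 4 of highest mean CPM are repeat-counted too, which raises that mean: all counts of miR-669a-5p are multiples of 12, those of both miR-467a strands of 10 and those of miR-669a-3p of 11. miR-467a-3p was at 734 and 432 CPM in WT, 2763 and 3083 CPM in Dgcr8_KO and 6928 and 2703 CPM in Ago12_KO. miR-669a-5p was at 3517 and 2377 CPM in WT and at 6634 and 4163 CPM in Dicer_KO, while miR-669a-3p had no count in Dicer_KO. miR-467a-5p was at 2812 and 1862 CPM in WT and 1327 and 1334 CPM in Dicer_KO. The comparisons share the WT libraries, and the difference between the lists was not tested.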

How the data were processed

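All 10 libraries stand in 1 table of whole-number read counts by mature miRNA, which the authors deposited without normalization. Bowtie and mm10 are named per the submitters' processing notes; how reads that match several places were counted, and against which miRNA annotation, is not given in the sources used here. Per the labels' protocols, the TruSeq small RNA kit was used on 1 ug of RNA extracted with Trizol. The quasi-likelihood test of edgeR 4.0.16 (R 4.3.3) was fitted to the 5 groups together (5 residual degrees of freedom). Library sizes were the column totals. filterByExpr kept 481 of 1907 entries, asking for 38.54 CPM (10 counts at the median depth) and 15 counts in all. Benjamini-Hochberg adjustment was over those entries, and an adjusted p under 0.05 made a call. Standard errors are the fold change over the root of F. No fold change is given where a group had no count. Intervals are Clopper-Pearson (scipy 1.17.1), for ratios conditional on the summed count. Replicates varied beyond counting noise in each group (chi-square over its degrees of freedom 3.71 to 58.6). Members are named if tested, if they reach 10 counts in a library or if called under an alternative. The 4 miR-467 and miR-669 entries named have the highest mean CPM. Members, lists and rules were chosen with earlier results of these data known. Alternatives were TMM factors, DESeq2 size factors, 2 looser filters, only the groups compared, a replicate block, DESeq2 1.42.0 and each library left out. Keeping a read set 1 time, and dividing its repeat-counted entries as well, was chosen after seeing the data. The labels of Dgcr8_KO and Ago12_KO hold codes that look like dates and the others do not, so a batch cannot be told apart from these groups.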

Additional observations from a re-analysis of the deposited data

How the results depend on the processing

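Of 82 fold changes of members with counts in both groups, 27 were called and 13 of these kept their call under all alternatives run. These numbers take in miR-466a-3p, miR-466b-3p and miR-466c-3p as separate entries, although they hold the same reads. All their calls against WT in Dgcr8_KO, Drosha_KO and Dicer_KO were among those kept, so the kept calls stand for fewer separate measurements. No called value changed sign, while 31 values that were not called did in at least 1 setting. Of members with no count in a group, miR-466h-5p and miR-466o-5p in Dicer_KO were called, and they lost the call in 13 and 7 of 19 alternatives. With each read set kept 1 time, members lower numbered 6 in Dgcr8_KO, 2 in Drosha_KO and 4 in Dicer_KO. They numbered 0 in Dicer_KO against Drosha_KO, because fewer entries stand for the same reads. Over all entries this setting called slightly fewer lower than the main fit in each of these comparisons. Dividing repeat-counted entries by their common factor left 0 higher and 1 lower in Dicer_KO against Drosha_KO. Looser filters called 2 members higher in Dicer_KO. TMM factors left 1 lower in Dicer_KO against Drosha_KO. DESeq2 size factors called 5 members lower in Dicer_KO and 0 in Dicer_KO against Drosha_KO, and fitting only those groups gave 0 lower and 0 higher there. DESeq2 called 1 member lower in Dgcr8_KO against Drosha_KO.

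Leaving out 1 library gave 0 to 2 members higher and 5 to 8 lower in Dicer_KO, 6 to 11 higher in Ago12_KO, 0 to 1 higher in Dgcr8_KO against Drosha_KO, and 0 to 1 higher and 0 to 2 lower in Dicer_KO against Drosha_KO. Over all entries, no filter called 259 higher in Dgcr8_KO, and DESeq2 size factors 106 lower in Dicer_KO and 99 higher and 90 lower in Dicer_KO against Drosha_KO. Fitting only the latter groups gave 34 and 78, and DESeq2 called 63 lower in Dgcr8_KO against Drosha_KO, where leaving out 1 library gave 11 to 50 higher and 18 to 48 lower. Causes were not tested.

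With each read set counted 1 time the mean family share moved from 0.710% to 0.267% in Ago12_KO, from 0.639% to 0.150% in WT, from 0.147% to 0.0515% in Drosha_KO and from 0.167% to 0.0624% in Dgcr8_KO. With repeat-counted entries divided as well it was 0.2475% in Ago12_KO, 0.146% in WT, 0.0489% in Drosha_KO and 0.0607% in Dgcr8_KO. Summing all entries gave 0.181% in Dgcr8_KO and 0.163% in Drosha_KO, and dividing by the common factor 0.137% and 0.117%. Leaving the 5 fragment-like entries named above out of the total gave 0.207% in Dicer_KO, against 0.107%.

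With the replicate number as a block, 10 members were lower in Dgcr8_KO, 6 in Drosha_KO and 7 in Dicer_KO, and 10 were higher in Ago12_KO. These members include entries that hold the same reads. Over all entries the block called slightly fewer than the main fit in each of these comparisons. The main fit called 41.0% lower in Dgcr8_KO, 31.6% in Drosha_KO and 42.6% in Dicer_KO, and 28.7% higher in Ago12_KO. Among the members, miR-466h-5p was the call lost with the block (edgeR adjusted p = 0.0663). The replicate numbers pair nothing the labels name, and differences between replicates correlated at -0.065 to 0.136 between groups. Depth is lowest in Drosha_KO and Dicer_KO, where most members had a WT level under the floor.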
